A study of Mus musculus with 24 samples.

Results

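The nuclear-encoded respiratory chain and ATP synthase were described through 92 of the 25385 gene symbols in the files. Members were chosen by name alone: symbols beginning Ndufa, Ndufb, Ndufc, Ndufs or Ndufv (complex I), the 4 Sdh subunits (complex II), symbols beginning Uqcr together with Cyc1 (complex III), Cycs (cytochrome c), symbols beginning Cox4 to Cox8 (complex IV) and symbols beginning Atp5 (complex V). By complex they numbered 38 for complex I, 4 for complex II, 9 for complex III, 1 for cytochrome c, 19 for complex IV and 17 for complex V, and the pattern also took in 4 complex I assembly factors, Ndufaf1 to Ndufaf4. A few names lie at the edge of the rule: Cox4nb encodes a protein of the endoplasmic reticulum membrane, Cox7a2l a factor that joins respiratory complexes, and Ndufa4 a protein now regarded as a complex IV subunit. Atp5s and Atp5sl entered under complex V by symbol only.

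The cells were mouse marrow-derived mesenchymal stem cells (MSC), a stromal progenitor expanded in culture for no more than 10 passages and able to form bone or fat cells. They were collected undifferentiated (day 0, no differentiation medium), after 7 or 15 days in osteogenic medium with β-glycerophosphate and ascorbic acid, or after 7 days in adipogenic medium with insulin, indomethacin and dexamethasone. In each state, 3 libraries came from cells given ethanol vehicle and 3 from cells given 100 nM 1,25(OH)2D3 (VD3), the hormonal form of vitamin D, for the last 24 hours, giving 24 libraries in 8 groups. All groups shared the same serum-containing base medium, and strain, age and the number of donor animals are not given in the sources used here. The labels do not say that the 3 libraries of a group came from separate cultures, so p-values measure the spread between these libraries, which may be technical. Levels are RPKM (reads scaled to transcript length and to the mapped reads of the library) as deposited, with the transcripts of a symbol summed. Differences are log2(RPKM + 1) differences with their standard error (SE), tested with limma over 21097 genes that reached 1 RPKM in at least 3 libraries. A gene was called at a Benjamini-Hochberg adjusted p below 0.05.

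The day 0 state held 5 libraries unlike the others. Their median over 1497 olfactory, vomeronasal and taste receptor genes, which are normally silent in such cells, was 3.39 to 4.93 RPKM, against 0.208 to 1.30 RPKM in the other 19 libraries, and their estimated depth was 7.13 to 11.0 M reads against 11.6 to 46.7 M reads. The exception at day 0 was VD3 replicate 2. In all, 69 members were at 5 RPKM or more in every library and so lay above this signal, while 15 members had a day 0 vehicle mean below 4.93 RPKM. Comparisons with day 0 are therefore also given within the VD3 arm, with replicate 2 standing alone for day 0 (the lone day 0 library). This setting was chosen after seeing the data, and it assumes that a single library varies as the other groups do.

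The respiratory chain sits in the inner mitochondrial membrane. Complex I takes electrons from NADH and complex II from succinate, coenzyme Q carries them to complex III, cytochrome c shuttles them on to complex IV, which reduces oxygen, and complex V uses the resulting proton gradient to make ATP. Most subunits are encoded in the nucleus and imported, some complex IV subunits exist as isoforms that mark muscle or other tissues, and fat cell differentiation is known to be accompanied by mitochondrial biogenesis. The transcription factor NRF1 is a known regulator of many of these genes, cytochrome c among them.

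NRF1 binds a palindrome-like element, and its core letters, GCGCATGCG on either strand, were searched in promoter windows from 250 bases before to 50 bases after the start site (RefSeq, GRCm38.p6). Of the 92 members, 75 matched an entry. Against 527 of 27025 genes with windows of the same length (1.95%), 10 of these members (13.3%) held the letters in any of their promoters. These are shown because they include Cycs, the member with the highest adipogenic-to-day-0 ratio. The element is in capitals within 25 bases read along the gene's strand, 5′ to 3′.
Cycs: tgctagctCGCATGCGCgcgcacaa
Uqcr11: cgccttcaCGCATGCGCtatacgtc
Uqcrc1: tccgctctGCGCATGCGcagcgcgg
Cox6a1: ggaacgggGCGCATGCGcgctctcg
Ndufa8: gctggagaCGCATGCGCagatggta
Atp5g2: ctccggccGCGCATGCGcagagcct
The Cycs window lies at chr6:50566614-50566638 on the minus strand, with the element starting 61 bases before the start site, and that of Uqcr11 at chr10:80406810-80406834 (minus strand, 5 bases before). The window of Uqcrc1, a core protein of complex III, is at chr9:108936670-108936694 (plus strand, 30 bases after the start), and that of the complex IV subunit Cox6a1 at chr5:115349104-115349128 (minus strand, 162 bases before). Ndufa8, a complex I accessory subunit, has its window at chr2:36049331-36049355 (minus strand, 9 bases before), and Atp5g2, a gene for the rotating c ring of complex V, at chr15:102671073-102671097 (minus strand, 42 bases before). The other 4 members holding the letters were Atp5k, Atp5l, Ndufa11 and Ndufaf4.

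The 250 bases upstream of Cycs, chr6:50566570-50566819 on the minus strand (64% G and C), are shown in full for the same reason, again with the element in capitals.
Cycs promoter: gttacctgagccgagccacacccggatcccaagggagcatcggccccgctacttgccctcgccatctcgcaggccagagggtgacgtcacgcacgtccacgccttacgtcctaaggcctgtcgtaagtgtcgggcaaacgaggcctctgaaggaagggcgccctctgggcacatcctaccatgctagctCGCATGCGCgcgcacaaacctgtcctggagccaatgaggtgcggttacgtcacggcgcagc
Other letters were searched on both strands. AAGGTCA, read by orphan nuclear receptors such as ERRα, was in 8 members (10.7%, against 5.38% of all genes). CCGGAAGT, read by ETS factors such as GABP, was in 5 (6.67% against 4.31%), and ATGGCGGC, read by YY1, in 7 (9.33% against 2.60%). At least 1 of these elements was in 27 of the 75 members (36%), against 13.3% of all genes. Base composition was not matched, and these are letter matches in a fixed window, not binding sites.

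The vehicle libraries of adipogenic day 7 and day 0 were compared first, to see how the chain differed once cells had been turned toward fat. Of 88 members tested, 77 were higher and 1 was lower on adipogenic day 7, where 13.2% of all genes tested were called higher and 65.5% lower. The median difference over members was 1.48 log2, against -0.83 over all genes. Of the 88 members, 65 were higher by at least 1 log2, beside 1104 of 21097 genes. With the lone day 0 library, the median over all genes was 0.11. The members' summed level was 4177, 4070 and 4213 RPKM in the day 0 vehicle libraries and 12603, 11667 and 12381 RPKM in the adipogenic vehicle libraries. This is 0.568% of all RPKM at day 0 and 2.20% on adipogenic day 7. With the noncoding RNA Rn7sk left out of the total, the shares were 0.758% and 2.57%. Adipocyte markers moved with this comparison: their summed level over 7 genes ran from 161 to 207 RPKM at day 0 and from 27399 to 29608 RPKM on adipogenic day 7, with 6 of 7 higher and Lep, the leptin gene of mature fat, near 0 at a mean of 0.185 RPKM. RPKM is relative within a library, so a larger share of differentiated cells and more RNA per cell cannot be told apart in these bulk samples.

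**Figure D1:**
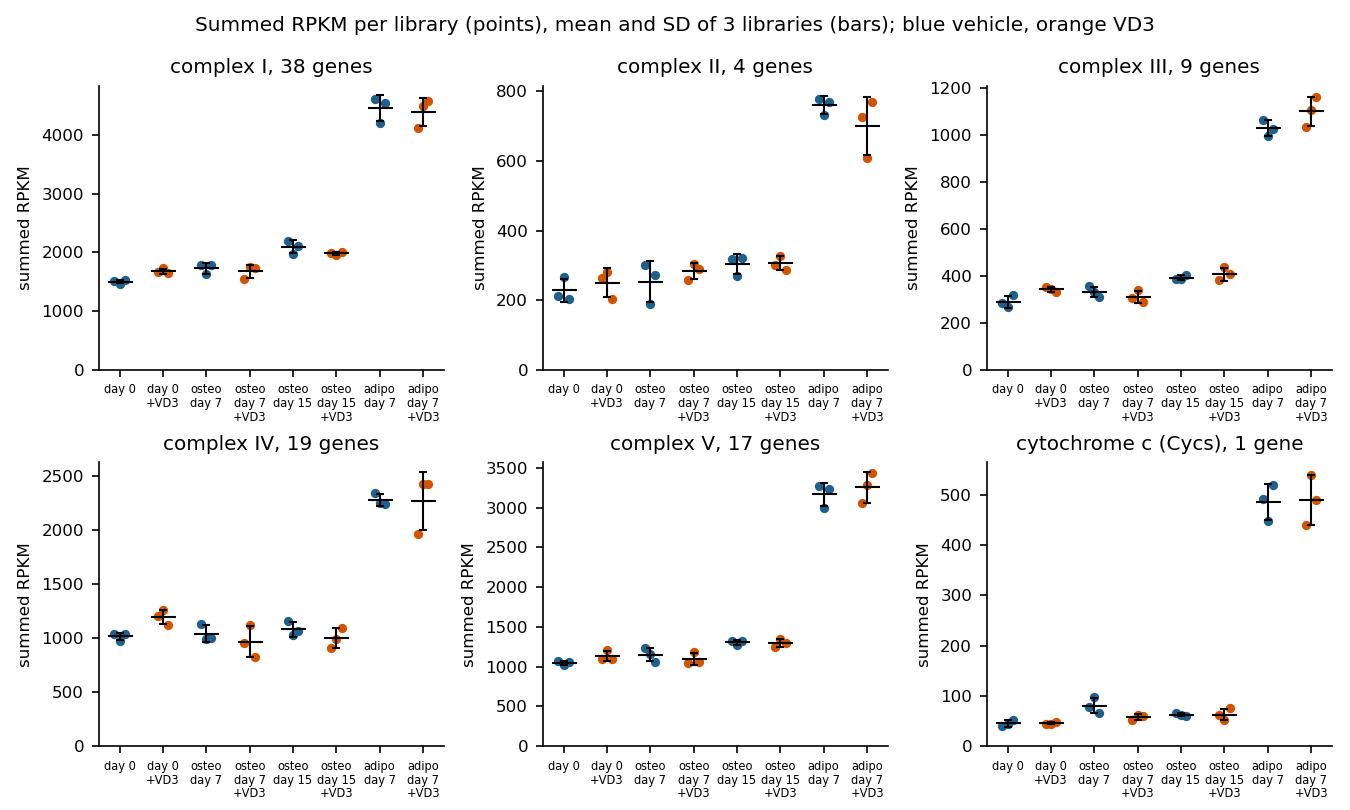
Summed RPKM of the members of each complex in the 24 libraries, by differentiation state and treatment, with points for libraries (blue vehicle, orange VD3) and bars for the mean and SD of 3 libraries. Complexes I to V and cytochrome c were each highest in the 6 adipogenic libraries, where the members' sum was near 12217 RPKM with vehicle and 12250 RPKM with VD3, against 4153 RPKM in day 0 vehicle libraries.

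Summed by complex as the symbols group them, the adipogenic-to-day-0 ratio was highest for cytochrome c and lowest for complex IV. Cytochrome c, from its 1 gene, was at 45.2 ± 6.42 RPKM (SD, n = 3) at day 0 and 486 ± 36.0 RPKM on adipogenic day 7, a ratio of 10.7. Complex III stood at 289 ± 26.9 and 1030 ± 34.2 RPKM (3.56), complex II at 228 ± 34.1 and 761 ± 25.3 RPKM (3.34), and complex V at 1050 ± 25.8 and 3166 ± 146 RPKM (3.01). Complex I stood at 1500 ± 29.4 and 4451 ± 222 RPKM (2.97) and complex IV at 1014 ± 33.6 and 2276 ± 56.7 RPKM (2.25). In each of these sums the 3 adipogenic libraries lay above the 3 day 0 libraries, and the differences between the complexes' ratios were not tested. The complex IV sum includes Cox7a2l, a factor that joins complexes and the complex IV member with the highest mean (311 RPKM over 24 libraries). Cox7a2l was not called in the main fit (-0.22 log2, limma adjusted p = 0.068), and the complex IV ratio without it was not computed.

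Cycs encodes cytochrome c, the small carrier between complexes III and IV. Its level was 39.5, 43.9 and 52.2 RPKM at day 0 and 491, 448 and 519 RPKM on adipogenic day 7. The groups did not overlap, and the difference was 3.40 ± 0.13 log2 (SE; adjusted p = 1.3e-15). Its level in the osteogenic vehicle libraries, 77.7, 96.9 and 66.9 RPKM on day 7 and 62.8 ± 3.05 RPKM (SD, n = 3) on day 15, lay between these. Processed copies of Cycs and of several small subunits occur in the genome, and how the authors' counting treated reads shared with them is not given in the sources used here.

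In complex I all 37 tested subunits were higher, by a median of 1.50 log2. With the lone day 0 library 33 of the 37 were called higher, and Ndufs6 (0.83 against -0.05, adjusted p = 0.94), Ndufa3 (0.88 against 0.61, adjusted p = 0.33), Ndufa4 (0.81 against 0.56, adjusted p = 0.10) and Ndufa7 (1.00 against 0.67, adjusted p = 0.17) were not. The 7 core subunits, which hold the flavin and iron-sulphur clusters, had a median of 1.62 and the 30 others one of 1.46. Ndufv1, which binds NADH and the flavin, was at 44.3, 45.6 and 47.4 RPKM at day 0 and at 258, 238 and 288 RPKM in adipogenic medium, a rise of 2.48 ± 0.09 log2 (adjusted p = 4.9e-16). Ndufb9, the complex I member with the highest mean, rose from 149, 155 and 156 to 624, 568 and 591 RPKM (1.95 ± 0.10 log2). Ndufab1, the mitochondrial acyl carrier protein, rose from 6.34, 8.36 and 3.51 to 29.5, 30.4 and 35.3 RPKM (2.27 log2). The smallest rise in the complex was that of Ndufa11, from 2.84, 3.52 and 3.27 to 5.42, 4.60 and 5.94 RPKM (0.58 ± 0.14 log2, adjusted p = 0.0010), at a level within the day 0 receptor signal. Of the assembly factors Ndufaf1 (1.08 log2) and Ndufaf4 (0.45) rose, while Ndufaf2 (0.42) and Ndufaf3 (0.06) were not called. Their day 0 means, 4.43 and 1.06 RPKM, lay within or below the receptor signal. Ndufaf2 was called higher after median-ratio rescaling (0.93), quantile normalization (1.37) and background subtraction (2.04), but was at -0.53 with the lone day 0 library. Ndufaf3 was called higher after quantile normalization (0.91) but not after rescaling or subtraction.

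The 4 complex II subunits, which form succinate dehydrogenase, all rose. The flavin subunit Sdha was at 79.0, 87.6 and 77.7 RPKM at day 0 and at 271, 262 and 298 RPKM in adipogenic medium (1.75 ± 0.13 log2), and the iron-sulphur subunit Sdhb went from 19.9, 20.1 and 21.7 to 70.8, 69.4 and 63.6 RPKM (1.68 ± 0.12). The membrane anchor Sdhc rose by 1.36 log2. The other anchor, Sdhd, was uneven at day 0, with 31.4, 76.7 and 26.6 RPKM against 219, 201 and 194 RPKM (2.32 ± 0.51 log2), and it was not called with the lone day 0 library (1.08, adjusted p = 0.27).

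All 9 complex III members rose, by a median of 1.98 log2. Cyc1, the haem subunit that hands electrons to cytochrome c, rose from 21.2, 29.4 and 23.5 to 163, 155 and 169 RPKM (2.68 ± 0.23 log2, adjusted p = 3.6e-09), a 6.57-fold ratio of means. The Rieske iron-sulphur subunit Uqcrfs1 rose from 48.8, 49.7 and 44.4 to 243, 207 and 242 RPKM (2.25 ± 0.10). The core proteins Uqcrc1 and Uqcrc2 rose by 1.86 and 1.98 log2. Among the small subunits Uqcrq rose from 13.0, 13.2 and 12.9 to 68.9, 105 and 88.8 RPKM (2.64 ± 0.36), and Uqcrh, the complex III member with the highest mean over all libraries, rose least, from 90.9, 78.6 and 95.9 to 189, 147 and 173 RPKM (0.93 ± 0.15). Uqcr11 was at 1.11, 9.95 and 16.9 RPKM at day 0 and at 47.1, 54.2 and 31.4 RPKM in adipogenic medium (2.57 ± 0.74, adjusted p = 0.0045). Its call was lost among VD3-treated libraries (1.43, adjusted p = 0.12).

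Complex IV, cytochrome c oxidase, was the least uniform. Of 16 members tested, 12 were higher and 1 was lower, with a median of 1.20 log2. The nuclear subunits found in most tissues rose: Cox6a1 from 21.7, 23.0 and 27.9 to 90.1, 105 and 110 RPKM (2.03 ± 0.17 log2), Cox5b from 76.1, 70.9 and 74.5 to 277, 281 and 274 RPKM (1.90 ± 0.13) and Cox4i1 from 103, 86.2 and 130.4 to 326, 345 and 309.7 RPKM (1.63 ± 0.16). Cox6b1 rose by 1.93 log2. Cox8a did not pass (10.7, 17.1 and 10.0 RPKM at day 0 against 19.0, 54.6 and 49.6 RPKM, 1.53 ± 0.72 log2, adjusted p = 0.060), with the first adipogenic library close to day 0.

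The complex IV isoforms known from muscle stayed low. Cox6a2 was at 0.179, 0.624 and 1.92 RPKM at day 0 and at 2.04, 2.50 and 2.55 RPKM on adipogenic day 7 (0.92 ± 0.25 log2, adjusted p = 0.0026), and Cox7a1 was listed at 0 in all 3 day 0 vehicle libraries and stood at 1.95, 0.988 and 0.104 RPKM (0.90 ± 0.33, adjusted p = 0.017). The Cox7a1 call was lost in 3 of 14 alternatives. Cox6a1, the widely expressed partner of Cox6a2, still made up 97.7 ± 0.06% of the summed Cox6a pair on adipogenic day 7, as Cox8a did 98.0 ± 1.35% of the Cox8 set. Cox7a2 made up 97.2 ± 2.39% of its pair with Cox7a1, against 100% at day 0. Cox8b was not called (0.50, adjusted p = 0.056). Skeletal and heart muscle markers ran from 5.70 to 12.7 RPKM summed over 9 genes at day 0 and from 5.51 to 6.87 RPKM on adipogenic day 7, with 1 of 5 tested genes higher and 4 lower, and Ckm, the muscle creatine kinase, at a mean of 0.0547 RPKM. The 4 lower, Actc1, Myh1, Myh6 and Nppa, were all not called with the lone day 0 library (0.03, 0.33, -0.03 and -0.43) or after quantile normalization (-0.11, -0.18, -0.23 and -0.15). The markers' part in the isoform values was not tested. Cox4i2, Cox6b2, Cox8c and Ndufa4l2, of which Ndufa4l2 and Cox4i2 are the alternative forms known from low oxygen, were too low to be tested, with no library above 1.13 RPKM.

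Cox7b2 was the 1 member called lower, at 2.61, 6.25 and 6.46 RPKM at day 0 against 1.02, 1.11 and 1.54 RPKM (-1.39 ± 0.42 log2, adjusted p = 0.0049). Its day 0 level lay at that of the receptor genes, and with the lone day 0 library, where Cox7b2 was at 0.190 RPKM, the difference turned to 0.66 (adjusted p = 0.37). Cox7a2l, the complex IV member with the highest mean, was at 338, 334 and 340.2 RPKM at day 0 and at 301, 268 and 299.9 RPKM in adipogenic medium (-0.22 ± 0.11 log2, adjusted p = 0.068). In the fit to the libraries compared only, Cox7a2l was called lower (limma adjusted p = 0.017). Its direction depended on the scaling: it was lower with the lone day 0 library (-0.53, adjusted p = 0.017) and higher after median-ratio rescaling of libraries (0.41, adjusted p = 0.030).

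In complex V, 12 of 17 members rose, with a median of 1.48 log2. The catalytic subunit Atp5b, the member with the highest mean of all 92, rose from 295, 289 and 305 to 1201, 1090.4 and 1216 RPKM (1.97 ± 0.08 log2, adjusted p = 8.1e-15), and its partner Atp5a1 from a mean of 269 to 818 RPKM (1.60 ± 0.09). The largest of the others were Atp5j2, a membrane subunit (2.11 ± 0.14 log2), and Atp5k (2.03 ± 0.51), the latter with a day 0 mean of 3.23 RPKM. The 5 members not called were Atp5g2, Atp5s, Atp5g1, Atp5sl and Atp5e, the small central-stalk subunit (64.7, 39.3 and 35.6 against 74.4, 70.7 and 48.1 RPKM, 0.49 ± 0.24 log2, adjusted p = 0.071). After median-ratio rescaling, Atp5g1 (0.89), Atp5e (1.11), Atp5s (0.50) and Atp5sl (0.84) were called higher as well, and Atp5g2 (-0.06) was not.

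**Figure D2:**
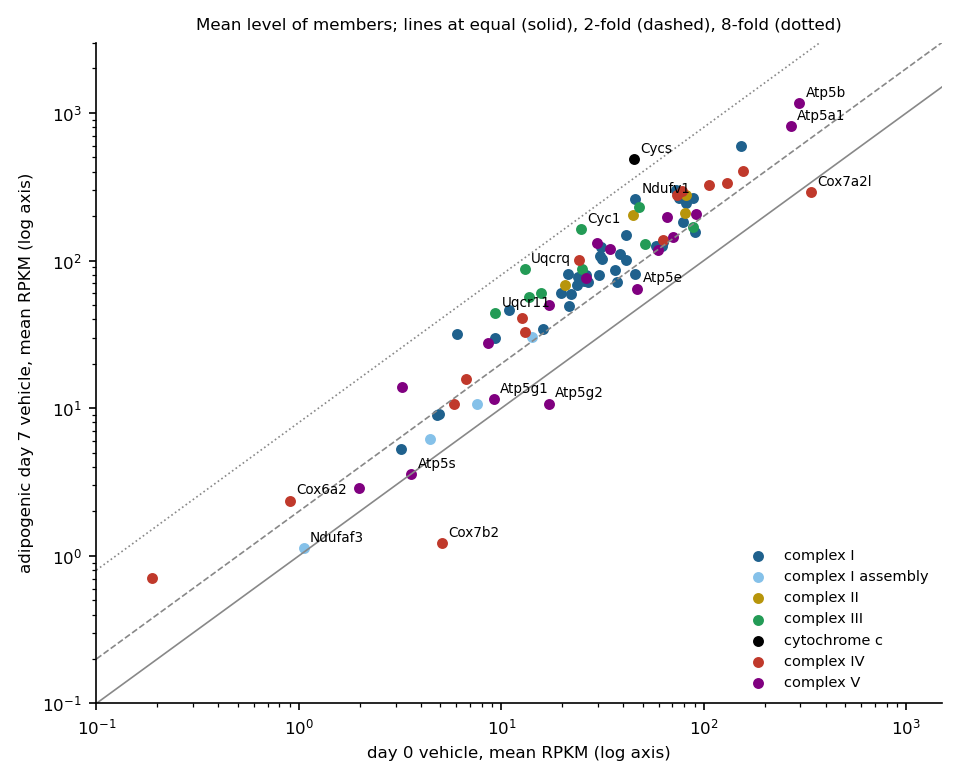
Mean RPKM of each member on adipogenic day 7 (vertical, log axis) against day 0 (horizontal, log axis) in vehicle libraries, coloured by complex, with lines at equal level, 2-fold and 8-fold; members with a mean under 0.1 RPKM in either group are not drawn. Most points lie above the line of equal level, Cycs farthest, while Cox7a2l, Atp5g2 and Cox7b2 lie on or below it.

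The c ring of complex V is built from 1 mature protein that 3 genes, Atp5g1, Atp5g2 and Atp5g3, encode with different import sequences.  Atp5g3 was at 35.4, 31.2 and 36.8 RPKM at day 0 and at 113, 129 and 117 RPKM on adipogenic day 7 (1.77 ± 0.22 log2, adjusted p = 6.8e-07). Atp5g1 was at 11.5, 6.54 and 9.46 RPKM against 11.7, 13.7 and 9.23 RPKM (0.32 ± 0.32, adjusted p = 0.36), with groups that overlap. Atp5g2 was at 17.0, 15.6 and 19.1 RPKM against 11.9, 11.9 and 8.37 RPKM (-0.65 ± 0.33, adjusted p = 0.083), with all 3 adipogenic libraries below day 0. In the fit to the libraries compared only, Atp5g2 was called lower (limma adjusted p = 0.0030).

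Shares of the 3 genes' summed RPKM do not depend on the scaling of a whole library. They do not remove the receptor signal, whose median averaged 4.20 RPKM in day 0 vehicle libraries and 0.732 RPKM in adipogenic vehicle libraries. As such shares, Atp5g3 made up 56.8 ± 1.57% at day 0, 52.7 ± 3.74% on osteogenic day 7, 62.3 ± 8.70% on osteogenic day 15 and 84.4 ± 2.25% on adipogenic day 7 (SD, n = 3). The adipogenic libraries stood at 82.7, 83.4 and 86.9%, above every day 0 and osteogenic day 7 vehicle library. The exact two-sided permutation p was 0.10 against each of these groups, the smallest that 3 against 3 allows. Atp5g2 held 28.3% at day 0 and 7.55% in adipogenic medium, and Atp5g1 14.9% and 8.10%. With VD3 in adipogenic medium the Atp5g3 share was 80.4 ± 1.86%, below all 3 vehicle libraries (exact permutation p = 0.10).

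**Figure D3:**
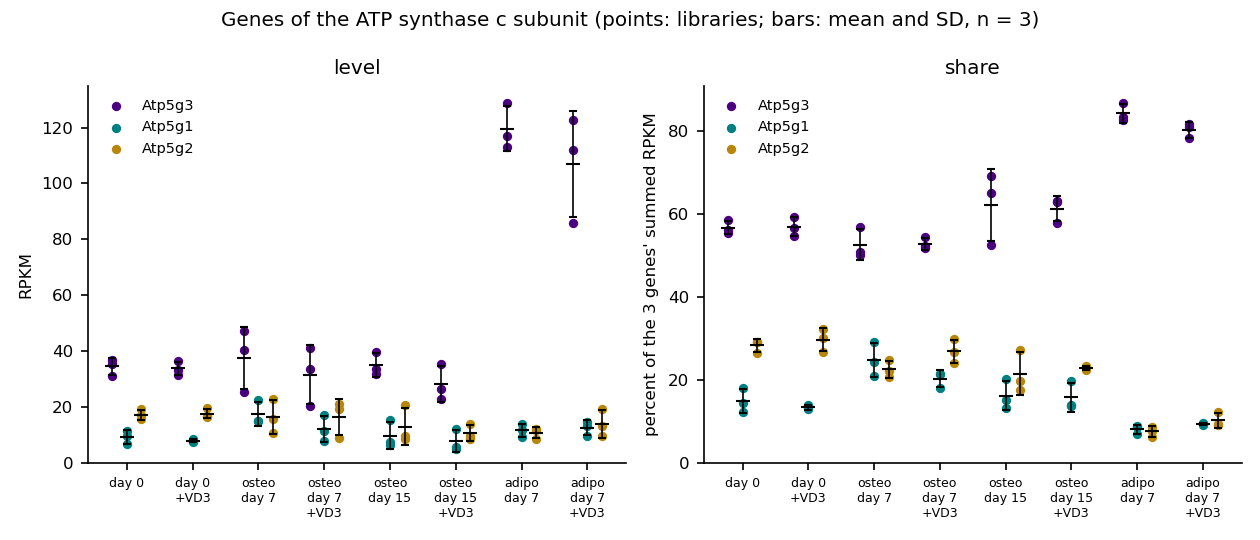
Levels (RPKM) of Atp5g1, Atp5g2 and Atp5g3, the 3 genes for the c ring of ATP synthase, and the share of their sum held by each, in every library by group. The Atp5g3 share was between 82.7 and 86.9% in the adipogenic vehicle libraries, against a mean of 56.8% at day 0.

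Adipogenic medium was also compared with osteogenic medium at the same day, where the difference of means does not use the day 0 libraries. These libraries still enter the variance of the fit, and so its p-values. Here 75 of 88 members were higher and 0 lower, with 12.4% of all genes called higher and 25.4% lower. An unadjusted p below 0.05 was found for 78 members, beside 8988 of 21097 genes. The median over members was 1.32 log2 against 0.02 over all genes. By complex the calls were 35 in complex I, 4 in complex II, 8 in complex III, 13 in complex IV, 13 in complex V, cytochrome c and 1 assembly factor. Cycs had the largest difference (2.59 ± 0.13 log2), followed by Cyc1, at 28.8, 19.6 and 39.8 RPKM on osteogenic day 7 and 163, 155 and 169 RPKM in adipogenic medium (2.48 ± 0.23), and by Ndufab1 (2.36) and Uqcrfs1 (2.16). Ndufv3, a small accessory subunit of complex I, stood at 35.5, 38.4 and 27.7 RPKM against 151, 156 and 143 RPKM (2.13 ± 0.13). Summed RPKM was 2.57 times as high for complex I, 3.00 for complex II, 3.10 for complex III, 2.19 for complex IV (Cox7a2l included) and 2.75 for complex V. At the low end were Atp5g1 (-0.54, adjusted p = 0.22), Atp5g2 (-0.52, adjusted p = 0.28) and Cox7a2l (0.01, adjusted p = 0.98), none of them called in the main fit. In the fit to the libraries compared only, Atp5g1 was called lower (limma adjusted p = 0.034). Osteoblast markers summed to 682 to 753 RPKM on osteogenic day 7 and to 129 to 152 RPKM on adipogenic day 7, so the groups differ in cell state as well as medium, and medium and state cannot be told apart.

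**Figure D4:**
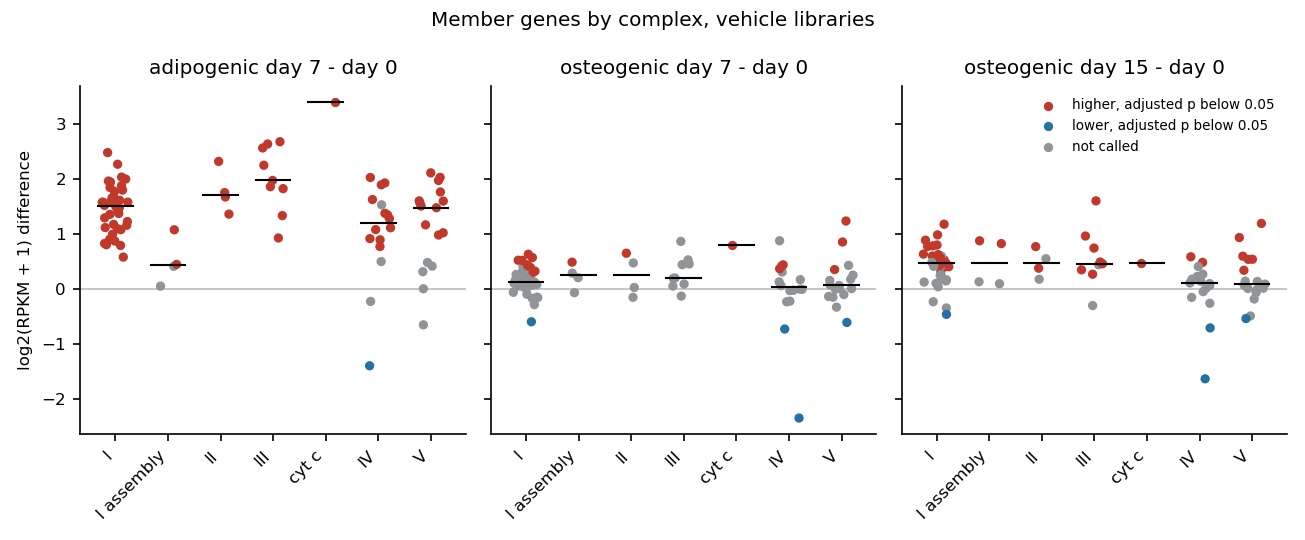
Log2(RPKM + 1) difference of each tested member on adipogenic day 7, osteogenic day 7 and osteogenic day 15 against day 0, by complex (red called higher, blue called lower, grey not called, bars medians). The 3 panels share the day 0 vehicle libraries. Members centre on 0.13 log2 on osteogenic day 7, 0.39 on day 15 and 1.48 on adipogenic day 7 against day 0.

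In osteogenic medium fewer members were called against day 0. After 7 days, 18 of 88 members were higher and 4 lower than at day 0, where 13.6% of all genes were called higher and 50.4% lower. The members' share higher was not far above that of all genes, and their share lower was well below it. The median was 0.13 log2 over members and -0.46 over all genes. The summed level was 4620 ± 251 RPKM against 4153 ± 74.4 RPKM. None of the 18 kept its call in all 15 alternatives, and with the lone day 0 library none was called higher. Ndufa5 turned there from 0.44 to -0.80 (adjusted p = 0.0079). Cycs rose by 0.81 ± 0.13 log2 (adjusted p = 4.6e-05), against 0.31 (adjusted p = 0.065) among VD3-treated libraries and 0.34 (adjusted p = 0.37) with the lone day 0 library. Sdhb, at 33.2, 32.1 and 33.4 RPKM against 19.9, 20.1 and 21.7 RPKM, rose by 0.65 ± 0.12 log2 and was above every day 0 vehicle library, but the difference was 0.13 among VD3-treated libraries (adjusted p = 0.37). Ndufa13, a complex I subunit also known as GRIM-19, stood at 65.8, 70.4 and 55.4 RPKM against 38.1, 34.6 and 50.5 RPKM (0.64 ± 0.13), and Ndufv1 at 70.2, 62.4 and 74.0 RPKM (0.58 ± 0.09), both without overlap. Among VD3-treated libraries the Ndufa13 difference was -0.18 (adjusted p = 0.27). Atp5k (1.24) and Atp5g1 (0.86, adjusted p = 0.023) had the largest differences among those called. The Atp5k difference was 0.27 (adjusted p = 0.68) among VD3-treated libraries, 0.32 (adjusted p = 0.88) with the lone day 0 library, and 0.89 (adjusted p = 0.17), 1.05 (adjusted p = 0.13) and 0.89 (adjusted p = 0.18) without day 0 vehicle replicate 1, day 0 vehicle replicate 2 and osteogenic day 7 vehicle replicate 2. That of Atp5g1 was 0.51 (adjusted p = 0.20) among VD3-treated libraries, 0.59 (adjusted p = 0.56) with the lone day 0 library, and 0.66 and 0.67 (adjusted p = 0.11 in both) without day 0 or osteogenic day 7 vehicle replicate 2. Those called lower were Cox7b2, Cox6a2 and Atp5s, all with day 0 levels near the receptor signal or below it, and Ndufa1, at 28.3, 14.5 and 37.4 RPKM against 36.5, 48.5 and 31.0 RPKM (-0.59, adjusted p = 0.026), where the groups overlap. The Ndufa1 call was lost in 7 of 15 alternatives, with -0.17 (adjusted p = 0.53) after median-ratio rescaling, -0.03 (adjusted p = 0.93) among VD3-treated libraries, -0.20 (adjusted p = 0.81) with the lone day 0 library, and -0.42 (adjusted p = 0.14) and -0.22 (adjusted p = 0.27) without day 0 or osteogenic day 7 vehicle replicate 2. Those called lower numbered 2 without osteogenic day 7 vehicle replicate 3. Without day 0 vehicle replicate 1 the members called higher numbered 11, beside 2580 of all 21097 genes. Among VD3-treated libraries they numbered 6, beside 3074 genes, and with the lone day 0 library 0, beside 1471 genes. Median-ratio rescaling gave 56 members, beside 6103 of the 20244 genes it tested.

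After 15 days in osteogenic medium 41 of 88 members were higher and 4 lower than at day 0, against 17.5% and 53.4% of all genes. The median was 0.39 log2 over members and -0.55 over all genes, and the summed level was 5281 ± 242 RPKM. The calls lay mainly in complexes I (21 higher) and III (7 higher), with 6 in complex V and 2 in complex IV. Uqcrq rose from 13.0, 13.2 and 12.9 to 29.7, 52.8 and 46.3 RPKM (1.61 ± 0.36 log2) and Ndufc1 from 7.69, 13.7 and 11.5 to 24.8, 25.1 and 26.5 RPKM (1.18 ± 0.22), each above all day 0 vehicle libraries. With the lone day 0 library neither was called, at 1.34 for Uqcrq (adjusted p = 0.077) and 0.65 for Ndufc1 (adjusted p = 0.19), and Ndufc1 was also not called among VD3-treated libraries (0.38, adjusted p = 0.15). Of the 41 members higher, 7 kept their call in all 15 alternatives. Summed complex IV, Cox7a2l included, was at 1082 ± 68.4 RPKM against 1014 ± 33.6 RPKM, a ratio of 1.07, while complex I had a ratio of 1.40. Ndufv3 went the other way, from 43.4, 35.9 and 43.9 to 34.3, 27.4 and 27.5 RPKM (-0.46 ± 0.13, adjusted p = 0.0041), but its difference was -0.07 after median-ratio rescaling (adjusted p = 0.69). The other members called lower were Cox7b2, Cox6a2 and Atp5s. The count called higher was 23 among VD3-treated libraries, beside 3568 of all 21097 genes, and 8 with the lone day 0 library, beside 2304 genes. After median-ratio rescaling it was 62, beside 5887 of 20244 genes.

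Between osteogenic days 15 and 7, 8 of 88 members were higher and 0 lower, against 6.87% of all genes higher and 6.47% lower. Here too day 0 libraries enter the variance of the fit but not the difference of means. The members' share higher was close to that of all genes. Ndufs7, a core subunit with an iron-sulphur cluster, rose from 6.51, 10.1 and 7.97 to 20.6, 14.5 and 14.7 RPKM (0.94 ± 0.18 log2, adjusted p = 8.6e-04), without overlap. Among VD3-treated libraries the Ndufs7 difference was 0.03 (adjusted p = 0.98). Cyc1 (0.77), Atp5j2 (0.58), Atp5j (0.42), Atp5b (0.38), Ndufa10 (0.36) and Ndufv1 (0.31) were also called. These 6 calls were each lost in 1 to 10 of 14 alternatives, all 6 after median-ratio rescaling. The Cyc1 call was lost in 8 of the 14, among them the fit to the libraries compared only (adjusted p = 0.12), the VD3-treated libraries (0.67, adjusted p = 0.051) and the fits without osteogenic day 7 vehicle replicate 1 (0.78, adjusted p = 0.069) or 2 (0.51, adjusted p = 0.20) or day 15 replicate 2 (0.68, adjusted p = 0.12) or 3 (0.60, adjusted p = 0.16). The higher count was 5 without osteogenic day 7 vehicle replicate 2, beside 1020 of 21097 genes. The lower count was 2 without osteogenic day 7 replicate 3, beside 1110 genes, or day 15 replicate 1, beside 1173 genes. Among VD3-treated libraries 16 members were higher and 2 lower, beside 1543 and 1989 genes.

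VD3 for 24 hours changed few members in any state. At day 0, 2 were higher and 1 lower than with vehicle, against 3.98% of all genes higher and 11% lower. Atp5j2 stood at 48.6, 49.8 and 36.1 RPKM with VD3 against 29.4, 30.8 and 29.1 RPKM (0.56 log2, adjusted p = 0.011), without overlap. Cox7b2 was lower (-1.28, adjusted p = 0.042). Without VD3 replicate 2, the day 0 library with little receptor signal, no member was called in either direction, and without vehicle replicate 2 or 3 the lower count was 0.

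On osteogenic day 7, 1 member was higher and 3 lower with VD3, against 2.91% and 2.35% of all genes. The lowest value was that of Cox8a (-2.23 log2), which was not called. Ndufs7 rose from 6.51, 10.1 and 7.97 to 11.5, 12.3 and 17.8 RPKM (0.69 log2, adjusted p = 0.024). Ndufa5, an accessory subunit of complex I, fell from 26.4, 32.5 and 28.8 to 20.2, 15.3 and 17.0 RPKM (-0.71, adjusted p = 0.011) and Ndufa12, another accessory subunit, from 69.3, 75.4 and 89.5 to 43.2, 70.0 and 42.9 RPKM (-0.61, adjusted p = 0.037), where VD3 replicate 2 reached the vehicle range. Cycs fell from 77.7, 96.9 and 66.9 to 51.2, 62.0 and 59.2 RPKM (-0.47, adjusted p = 0.040). The Ndufs7 call was lost after median-ratio rescaling, quantile normalization and background subtraction, in each of which 0 members were higher, as also without vehicle replicate 3 or VD3 replicate 3. It was also lost without vehicle replicate 1 (0.55, adjusted p = 0.15) and in the fit to the libraries compared only (0.69, adjusted p = 0.10). Without vehicle replicate 2, 0 members were lower, and the Cycs and Ndufa12 calls were each lost in 7 of 13 alternatives.

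On osteogenic day 15 limma called 0 members for VD3, against 0.773% of all genes called in either direction. At an unadjusted p below 0.05 were 4 members, beside 1280 of 21097 genes. On adipogenic day 7 limma also called 0, against 2.08% of all genes. There 5 members had an unadjusted p below 0.05, beside 1599 genes. The median over members was -0.08 and 0.01 log2. Cycs in adipogenic medium was at 440.0, 539 and 489 RPKM with VD3 against 491, 448 and 519 RPKM with vehicle, and the groups overlap. The largest rise by value was Cox8b (0.76, adjusted p = 0.14) and the lowest value Sdhd (-0.55), which was at 180.2, 74.2 and 202 RPKM, its second library far below the others. Without adipogenic vehicle replicate 3, 1 member was called higher.

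The VD3 effect was also compared between media by an interaction term. Between adipogenic and osteogenic day 7, 1 member, Ndufa13, passed, against 1.82% of all genes. The largest value was that of Cox8a (2.41 log2), which was not called. Ndufa13 was at 44.0, 42.0 and 54.3 RPKM with VD3 against 65.8, 70.4 and 55.4 RPKM with vehicle in osteogenic medium, and at 122, 132 and 124.6 RPKM against 101, 96.7 and 106 RPKM in adipogenic medium. The difference of the VD3 effects was 0.76 ± 0.18 log2 (adjusted p = 0.032) and was not called after median-ratio rescaling (0.78, adjusted p = 0.24), and VD3 on its own was not called in either medium. Between osteogenic days 15 and 7, limma called 0 members for a difference in the VD3 effect, against 0.185% of all genes. At an unadjusted p below 0.05 were 8 members, beside 1383 of 21097 genes. The largest value was again that of Cox8a (2.06 log2).

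**Figure D5:**
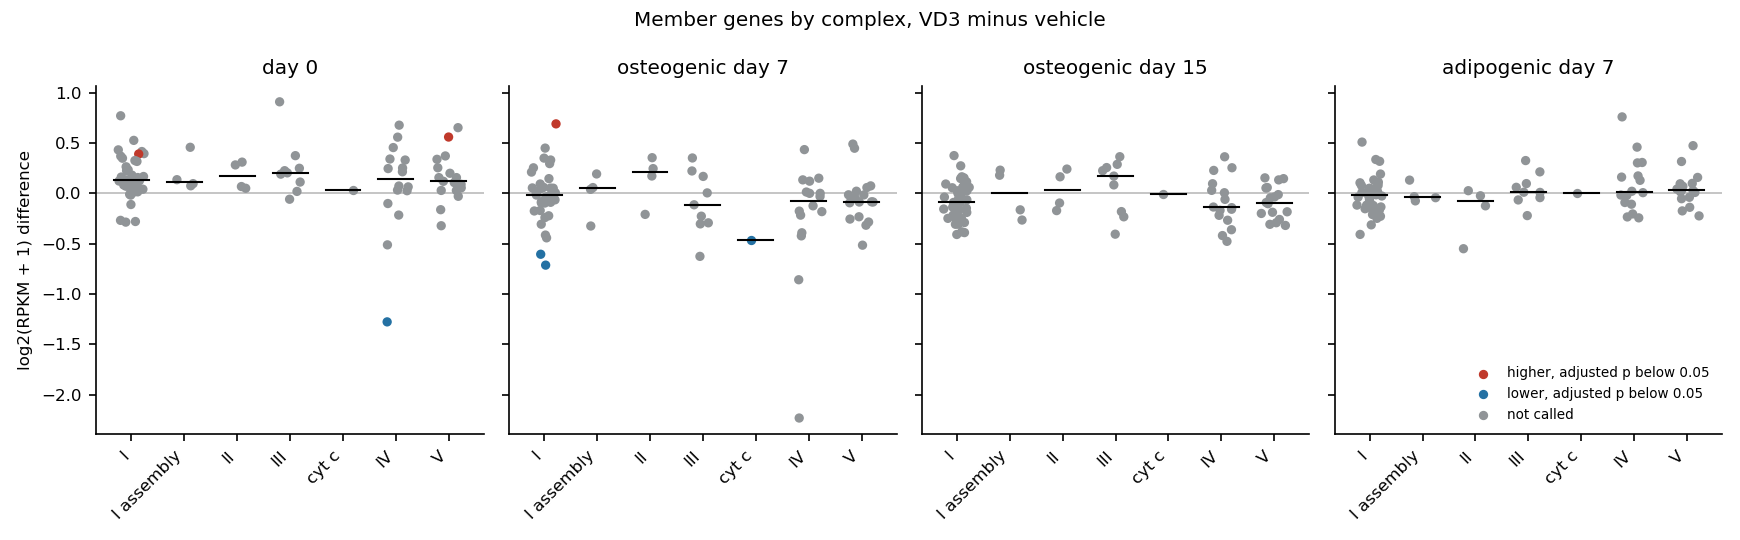
Log2(RPKM + 1) difference between VD3 and vehicle for each tested member in the 4 differentiation states, by complex (red called higher, blue called lower, grey not called, bars medians). Members centre near 0 in every state (medians from -0.08 to 0.13 log2), and 3, 4, 0 and 0 members were called at day 0, osteogenic day 7, osteogenic day 15 and adipogenic day 7.

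Genes that build or feed the chain, from lists kept apart from the members, were read in the comparison of adipogenic day 7 with day 0. In that comparison 13.2% of all genes tested were called higher and 65.5% lower. Of the complex I assembly factors outside the rule, 5 of 6 tested were higher and 0 lower. Foxred1, needed for complex I assembly, rose from 5.42 ± 1.06 to 25.8 ± 2.10 RPKM (SD, n = 3), by 2.07 ± 0.12 log2. All 3 complex II factors tested rose, and 8 of 12 complex IV factors rose with 0 lower. Some of these rises were smaller with the lone day 0 library: Acn9 of complex II (0.57 against 0.29), and Cox11 (0.81 against 0.54) and Lrpprc (0.80 against 0.31) of complex IV. The complex I factor Tmem126b likewise went from 1.07 to 0.70. Cox17, the copper chaperone of complex IV, went from 36.8, 22.6 and 31.5 to 107, 110.4 and 114 RPKM (1.86 ± 0.16). Of 4 complex III factors, Uqcc rose (1.72 ± 0.12) and Ttc19 was lower (-0.69), a call lost after median-ratio rescaling (-0.10, adjusted p = 0.56). For complex V, Atpaf2, which helps to assemble its catalytic head, rose (1.75 ± 0.14), as did 2 of the other 3. Atpif1, the inhibitor that blocks reverse turnover of complex V, was at 100.4, 93.3 and 131 RPKM against 60.6, 57.8 and 55.8 RPKM (-0.87 ± 0.14, adjusted p = 1.2e-05). It was not called after median-ratio rescaling (-0.24, adjusted p = 0.22). None of the 13 mitochondrially encoded subunits on the list was matched by symbol, so these were not analysed here.

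Of 9 coenzyme Q synthesis genes tested, 6 rose and 0 fell, with Coq5, a methyltransferase of the pathway, at 12.1, 13.4 and 10.8 RPKM against 61.1, 54.9 and 59.3 RPKM (2.19 ± 0.09 log2). The rise of Coq6 went from 1.17 to 0.86 with the lone day 0 library. Of the 5 other inputs to coenzyme Q, 4 rose: the electron transfer flavoprotein subunits Etfb (1.98) and Etfa (1.24), its dehydrogenase Etfdh (1.80), and the glycerol phosphate dehydrogenase Gpd2 (1.27). Dhodh, of pyrimidine synthesis, was not called (-0.18). The Etfa call was lost with the lone day 0 library (0.62, adjusted p = 0.27). Among carriers and uncouplers 6 of 8 rose and 1 fell. With the lone day 0 library 3 were called higher, and Slc25a3 (0.55 against 0.28), Vdac2 (0.57 against 0.29) and Vdac3 (0.45 against 0.30) were not. The adenine nucleotide carriers that exchange ADP for ATP differed in value: Slc25a5 rose from 179.9, 172 and 179 to 872, 798 and 874 RPKM (2.25 ± 0.07), while Slc25a4 was at 759, 733 and 789 RPKM against 814, 687 and 825 RPKM (0.02 ± 0.12, adjusted p = 0.86). Ucp1, the uncoupler of brown fat, was at 1.36, 1.75 and 3.24 RPKM at day 0 and at 0.313, 0.293 and 0.394 RPKM on adipogenic day 7, and its direction turned with the lone day 0 library (-1.18 to 0.21). Of the 6 brown and beige fat genes tested, 2 rose and 4 were lower: Elovl3, a fatty acid elongase, reached 56.3, 57.7 and 52.1 RPKM from 0.822 RPKM or less, and Cidea 2.89, 2.31 and 3.47 RPKM from 0.304, 0.972 and 1.21 RPKM. Of the 4 lower, Tmem26 (-0.95) was at 0.09 with the lone day 0 library (adjusted p = 0.82) and -0.09 after quantile normalization, and Dio2 (-1.54) at -0.07 after background subtraction (adjusted p = 0.68).

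Of 12 regulators of mitochondrial biogenesis, 6 were higher and 4 lower. Esrra, the receptor ERRα, rose from 10.4, 14.7 and 12.6 to 29.4, 27.8 and 32.0 RPKM (1.19 ± 0.13 log2), and Tfb2m, a mitochondrial transcription factor, from 13.0, 12.6 and 11.3 to 28.5, 28.8 and 29.1 RPKM (1.17 ± 0.11). The coactivator Ppargc1b rose by 0.78 log2 and Tfam, which packages mitochondrial DNA, by 0.27. The directions of the 4 called lower depended on the setting. Nrf1 was at 15.1, 15.8 and 12.8 RPKM against 11.2, 9.45 and 10.4 RPKM (-0.45) and turned to 0.13 after median-ratio rescaling (adjusted p = 0.45). Gabpa turned from -0.21 to 0.40 with that rescaling (adjusted p = 0.0080), Pprc1 from -0.60 to 0.49 with quantile normalization (adjusted p = 0.093), and Ppargc1a from -1.38 to 0.27 with the lone day 0 library (adjusted p = 0.46).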

How the data were processed

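RNA from 24 mouse MSC libraries was depleted of ribosomal RNA and made into directional libraries, per the labels' protocols. The authors deposited 1 table of RPKM per library, with 30795 transcript rows. TopHat and the mouse build mm9 are named in the submitters' processing notes, and the counting tool, its annotation, its use of strand and its filters are not given in the sources used here. Rows whose symbol reads as a date (40 per table) were not used.

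Transcripts of a symbol were summed (7 members have several). Genes reaching 1 RPKM in 3 libraries entered a limma fit (version 3.58.1, R 4.3.3; 8-group model over all 24 libraries, trended and robust variance) on log2(RPKM + 1). The pseudocount of 1 understates the change of low genes. P-values were adjusted by Benjamini and Hochberg over all genes tested. Depth was estimated from the RPKM worth of 1 read among 150 receptor genes of 900 to 1000 bases, with values counted as whole within 0.1. Shares were compared by exact permutation, and tables were handled with Python 3.11.15, numpy 2.4.6 and pandas 2.3.3 and drawn with matplotlib 3.10.9. The fit was tested on simulated data.

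The members and lists were chosen with earlier results of these data known. Genes named were, in each comparison, the 5 largest differences and the 3 lowest among members at 5 RPKM or more in the higher group, the member with the highest mean in each complex, all isoform sets, members too low to test and up to 4 genes with the largest change in each further list. Others named were chosen after their values were seen, and 1 gene that the rule names is not reported here. Alternatives were a pseudocount of 0.1, no filter, median-ratio rescaling, quantile normalization, subtraction of the receptor median, a replicate block, only the libraries compared, VD3-treated libraries, leaving out each replicate, and, chosen after seeing the data, the lone day 0 library.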

Additional observations from a re-analysis of the deposited data

Results flagged for a closer look

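Ndufa13, an accessory subunit of complex I, was the 1 member of 88 called in the main fit for a VD3 effect that differed between media. Of all genes 1.82% were called, so the share of members was not above the background. The VD3 effect was higher by 0.76 log2 on adipogenic day 7 than on osteogenic day 7 (SE 0.18, limma adjusted p = 0.032). In osteogenic medium all 3 VD3 libraries (44.0, 42.0 and 54.3 RPKM) lay below the 3 vehicle libraries (65.8, 70.4 and 55.4 RPKM), a difference of -0.44 log2, and in adipogenic medium all 3 VD3 libraries (122, 132 and 124.6 RPKM) lay above the vehicle libraries (101, 96.7 and 106 RPKM), a difference of 0.32 log2. Neither was called by itself. The call was lost after median-ratio rescaling (0.78, adjusted p = 0.24) and when any of 8 single replicates was left out (0.69 to 0.77): osteogenic day 7 vehicle or VD3 replicate 1 or 2, adipogenic vehicle replicate 1 or 2, and adipogenic VD3 replicate 2 or 3.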

How the results depend on the processing

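Members called higher on adipogenic day 7 numbered 77 against day 0 and 75 against osteogenic day 7, and over the alternatives 69 to 85 and 68 to 79, while the osteogenic and VD3 counts depended on the setting. Of all genes, 5223 of 20244 were called higher on adipogenic day 7 against day 0 after median-ratio rescaling, and 5509 of 13668 after background subtraction. In this comparison the 1 lower member became 0 with a pseudocount of 0.1, quantile normalization or background subtraction. The lower count was 3 with no filter or with the libraries compared only. Osteogenic day 7 against day 0 had 56 higher and 2 lower after median-ratio rescaling, 48 and 1 after background subtraction, 6 and 8 among VD3-treated libraries, 0 higher with the lone day 0 library, 7 lower with quantile normalization and 2 lower with the libraries compared only. Leaving out a replicate gave 11 to 18 higher and 2 to 4 lower. Osteogenic day 15 against day 0 had 62 higher and 2 lower after median-ratio rescaling, beside 5887 and 8517 of 20244 genes. VD3-treated libraries gave 23 and 8, beside 3568 and 6895 of 21097 genes. Background subtraction gave 1 lower, beside 1779 of 13668 genes. Adipogenic against osteogenic day 7 had 1 lower, Atp5g1, with the libraries compared only. Osteogenic day 15 against 7 had 2 higher after median-ratio rescaling, beside 740 of 20244 genes. VD3-treated libraries gave 16 higher and 2 lower, beside 1543 and 1989 of 21097 genes. Leaving out a replicate gave 5 to 10 higher and 0 to 2 lower. For VD3 at day 0, median-ratio rescaling gave 8 higher, beside 1216 of 20244 genes, and background subtraction 8, beside 1437 of 13668 genes. Quantile normalization gave 5, beside 1325 of 21097 genes. The lower count was 0 with a pseudocount of 0.1, these 3 settings and the libraries compared only, and leaving out a replicate gave 0 to 3 higher and 0 to 2 lower. For VD3 on osteogenic day 7, the higher count was 0 with median-ratio rescaling, quantile normalization, background subtraction and the libraries compared only. The lower count was 1 with all of these but the subtraction, and leaving out a replicate gave 0 to 1 higher and 0 to 4 lower. For VD3 on adipogenic day 7 it gave 0 to 1 higher. The difference of VD3 effects between media was called in 0 members after median-ratio rescaling, 2 with the libraries compared only, and 0 to 2 without a replicate.

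Same-numbered replicates did not deviate together (r from -0.09 to 0.17), so the numbers are not taken as pairs. With a replicate block, 77 members were higher and 1 lower on adipogenic day 7 against day 0, 18 and 4 on osteogenic day 7, 40 and 5 on day 15, 76 and 0 for adipogenic against osteogenic day 7, and 8 and 0 for osteogenic day 15 against 7. The block gave 3 and 1 for VD3 at day 0, 1 and 3 for VD3 on osteogenic day 7, and 2 for the difference of VD3 effects between media.

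A tally was kept of 679 alternative values for 45 named genes, in only part of the comparisons in which they are named. Of these values 579 kept direction and call, 75 lost the call, 18 gained it, 2 moved and 5 reversed. Reversals given above but outside this tally include those of Ndufa5 on osteogenic day 7 and Gabpa on adipogenic day 7. With the lone day 0 library Cox7b2 turned to 0.66 on adipogenic day 7, 0.10 on osteogenic day 7 and 0.18 on day 15. Cox7a2l turned to 0.41 on adipogenic day 7 after median-ratio rescaling, and Cox8a to -2.03 (limma adjusted p = 0.035) on osteogenic day 7 among VD3-treated libraries. After background subtraction the share of Cox6a1 on adipogenic day 7 was 98.4% and that of Cox8a 99.6%. The cause of these changes was not tested. The median over all genes on adipogenic day 7 against day 0 moved from -0.83 to -0.39 with median-ratio rescaling, -0.08 with quantile normalization and 0.28 after subtraction. Depth limits the members below the day 0 receptor signal, and counting error could not be separated from the spread between libraries.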
